A study of Mus musculus with 21 samples.

Results

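Overexpression of Esrp2-as was examined in 3T3-L1 cells, a mouse preadipocyte line that can be driven to form fat cells in culture. The labels give 2 biological replicates that carried an Esrp2-as overexpression construct and 2 that carried the empty vector. The vector, its promoter, the Esrp2-as isoform inserted and the number of clones are not given in the sources used here. The 4 cultures were chosen by these labels and stand for 6 of the 21 deposited samples and 4 of the 14 biological replicates of the study. In both groups replicate 1 was read on 2 lanes, called lane 1 and lane 2 below, and replicate 2 on 1 other lane. Each run code in the column names was read here as a lane, and the cultures of a pair shared their lanes. The other samples were the mammary tumour lines M27H4, with the same overexpression and empty vector groups, and M6, with a knockdown of Esrp2-as by antisense gapmers and controls. All lines were grown in DMEM with fetal calf serum, and no agent that induces fat cell formation is named. Total RNA was depleted of ribosomal RNA and read from strand-specific libraries.

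Esrp2-as is a long noncoding RNA, a transcript that is not translated into protein. It is made from the strand opposite to Esrp2, whose protein steers alternative splicing in epithelial cells together with its relative Esrp1. The pair favours epithelial exons in targets such as Fgfr2, and fibroblasts and preadipocytes normally make little of either. 3T3-L1 cells therefore offer a mesenchymal setting in which the RNA can be raised apart from its protein-coding neighbour.

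Esrp2-as carries the name 1810019D21Rik in the annotation used here and is annotated on the plus strand of GRCm38 chromosome 8 (106135400 to 106138525). Esrp2 runs from 106130319 to 106136974 on the minus strand, so the 5′ parts of the 2 genes overlap. The annotated Esrp2-as transcript that took nearly all counts, 1810019D21Rik-203, has 2 exons, 106137065 to 106137350 and 106137828 to 106138525, which add up to 984 bases and lie outside Esrp2. The last 300 bases of exon 2, chr8:106138226-106138525 on the plus strand, are shown because this stretch lies outside Esrp2.
Esrp2-as: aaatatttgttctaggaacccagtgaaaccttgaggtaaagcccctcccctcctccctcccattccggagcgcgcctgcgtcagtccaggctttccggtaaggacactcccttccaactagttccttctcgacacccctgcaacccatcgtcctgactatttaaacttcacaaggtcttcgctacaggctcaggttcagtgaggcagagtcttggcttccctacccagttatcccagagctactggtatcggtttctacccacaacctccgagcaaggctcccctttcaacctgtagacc

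Libraries were deep. The 4 biological replicates held 114285204 to 235669979 counts, and 18044 to 19971 genes had at least 10 counts. Mitochondrially encoded genes took 0.527% and 0.591% of counts in the replicates numbered 1 and 0.327% and 0.341% in those numbered 2, and small structured RNAs took 5.03% to 7.15%. The 15 fibroblast and preadipocyte markers, among them Col1a2, Col3a1, Vim and Pdgfra, summed to 8421 to 9173 CPM (counts scaled to a common library total) in controls and 9463 to 9912 with Esrp2-as, and 14 of them were above 1 CPM in all 4 replicates. The 23 epithelial markers, which include Epcam, Krt8 and Cdh1, summed to 37.1 to 49.1 CPM in controls and 45.3 to 46.5 with Esrp2-as, against 7291 to 8211 in the M6 libraries. Markers of mature fat cells summed to 6.197 to 9.36 CPM, nearly all of it Lipe, and Adipoq and Plin1 were below 0.1. Immune markers summed to 13.8 to 15.2 CPM, endothelial ones to 9.30 to 10.2 and muscle ones to 0.665 to 0.749. Cd14 at 9.59 to 10.9 CPM and Flt1 at 6.73 to 7.95 took most of the first 2 sums. Lyz2 (1.40 to 1.71), Cd68 (1.12 to 1.45) and Tek (1.14 to 1.46) were also above 1 in all 4 replicates. Csf1r ran from 0.971 to 1.32. Others, such as Cd3e, Itgam, Tyrobp, C1qa, Tie1, Cldn5, Erg, Myod1, Myf5, Ckm and Mymk, had no counts in any of them. Fibroblast and preadipocyte markers were thus high and those of fat cells low.

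Esrp2-as itself was the only gene called higher at an adjusted p under 0.05 in the main fit, and no gene was called lower. Its level, in CPM scaled by the effective library size, was 0.250 and 0.355 in the 2 controls and 45.8 and 35.5 in the 2 overexpressing cultures. The groups did not overlap, and the lanes of one library gave like values. Unscaled, the lanes of control replicate 1 held 0.176 and 0.317 CPM and control replicate 2 held 0.363. Overexpressing replicate 1 held 47.8 and 45.2 and replicate 2 held 35.0. The control columns took 18, 37 and 44 counts, so the fold below rests on a low control value. The same lanes also held the 3T3-L1 overexpressing libraries and those of M27H4, at 63.7, 68.1 and 15.6 CPM of Esrp2-as. Their part in the control values was not tested. The fitted rise was 7.08 on the log2 scale (SE 0.575, 95% interval 5.80 to 8.37), which is 136-fold (adjusted p = 0.00656, edgeR quasi-likelihood test with the pairs). It was 7.48 in pair 1 and 6.61 in pair 2. This was 1 of 21237 genes tested, 0.00471% of them, and 0% fell at the same threshold, an adjusted p under 0.05.
At an unadjusted p under 0.05 there were 235 genes, 1.11%. With no change in any gene, a share of about 0.05 would be under it. The 1.11% lies below that share, so these 235 genes cannot be read as changed. The same limit holds for the unadjusted p-values given below. The adjusted p of Esrp2-as was over the threshold when either pair was left out, at 0.0838 without replicate 1 and 0.145 without replicate 2, with log2 rises of 6.64 and 7.50.

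**Figure D1:**
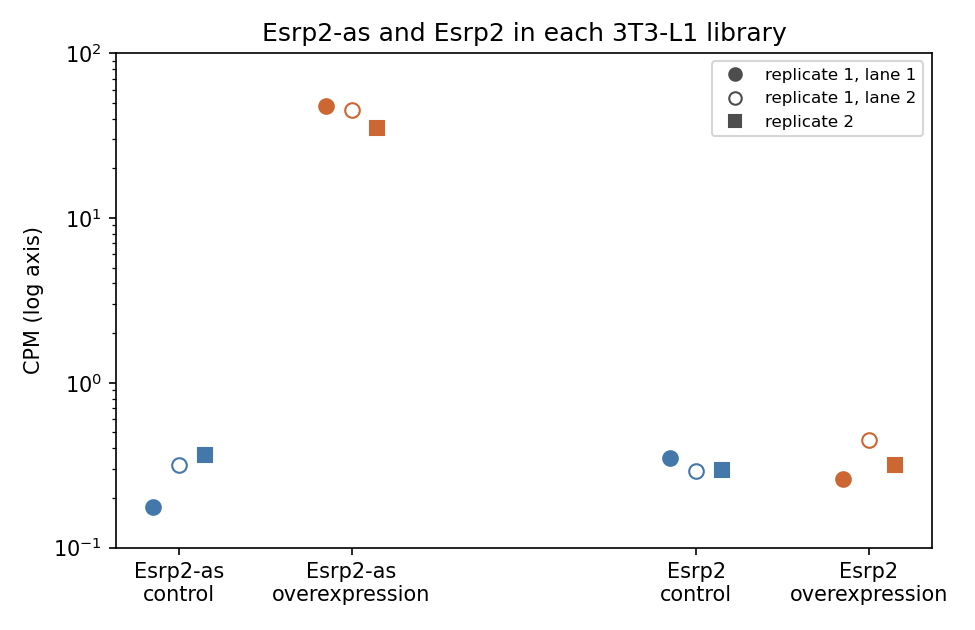
CPM of Esrp2-as and Esrp2 on a log axis in the 6 deposited 3T3-L1 columns, with circles for the 2 lanes of replicate 1 and squares for replicate 2. Esrp2-as lies at 0.176 to 0.363 in controls and 35.0 to 47.8 with overexpression, while Esrp2 lies at or below 0.450 throughout.

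Among its annotated transcripts, 1810019D21Rik-203 took 18, 34 and 44 counts in the control columns and 5284, 5621 and 3969 in the overexpressing ones. The shorter 1810019D21Rik-202 took none in the controls and 18, 8 and 13 with overexpression, and 1810019D21Rik-201 stayed at 0 to 13 counts in all 6 columns. The isoforms that overlap Esrp2 thus had few counts in both groups. For comparison, the same overexpression in M27H4 gave 15.6 to 68.1 CPM against 0.744 to 1.32 in its empty vector columns, and the M6 controls, which make the RNA on their own, held 2.09 to 3.21 CPM. The 3T3-L1 overexpressing cultures were therefore above the level of the M6 controls in every column.

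Esrp2, the protein-coding neighbour, was near the lower end of detection and did not pass the test. It was 0.319 and 0.291 CPM in control cells and 0.356 and 0.320 with Esrp2-as, a log2 change of 0.15 (SE 0.222, 95% interval -0.35 to 0.65, adjusted p = 1). The M6 columns held 51.6 to 71.3 CPM of Esrp2 and the M27H4 columns 9.60 to 15.5. Of 24 tested genes around Esrp2 on chromosome 8, 0 passed the test and their median log2 change was 0.04, against 0.00296 over all genes tested. Nfatc3, the transcription factor gene next to Esrp2, was 59.5 and 41.4 CPM in controls and 57.6 and 66.3 with Esrp2-as. Tango6 was 24.1 and 19.8 CPM against 24.1 and 28.3, and the cadherin gene Cdh3 was 0.510 and 0.573 against 0.775 and 0.719. For Nfatc3 and Tango6 the higher values came from pair 2 alone.

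The rest of the transcriptome was close to its control. Among 9466 genes of at least 10 CPM, the median absolute log2 change was 0.0917 in pair 1 and 0.119 in pair 2, which is smaller than the median difference between the 2 controls (0.215) and between the 2 overexpressing cultures (0.152), which did not share lanes. The 95% interval of the change lay within 1 log2 unit of zero for 8592 of these genes, 90.8%. Those 8592 genes therefore had intervals that leave out a doubling or a halving, while changes inside their intervals were not detectable with 2 pairs.
In pair 1, 50 genes changed by more than 1 log2 unit and in pair 2, 90. Of all 9466, 13 (0.137%) did so in the same direction in both pairs, 7 higher and 6 lower, and 8 did so in opposite directions. Over the 9466 genes the changes of pair 1 and pair 2 had a correlation of -0.129 (Spearman 0.103). Changes across genes thus hardly repeated between the pairs.

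**Figure D2:**
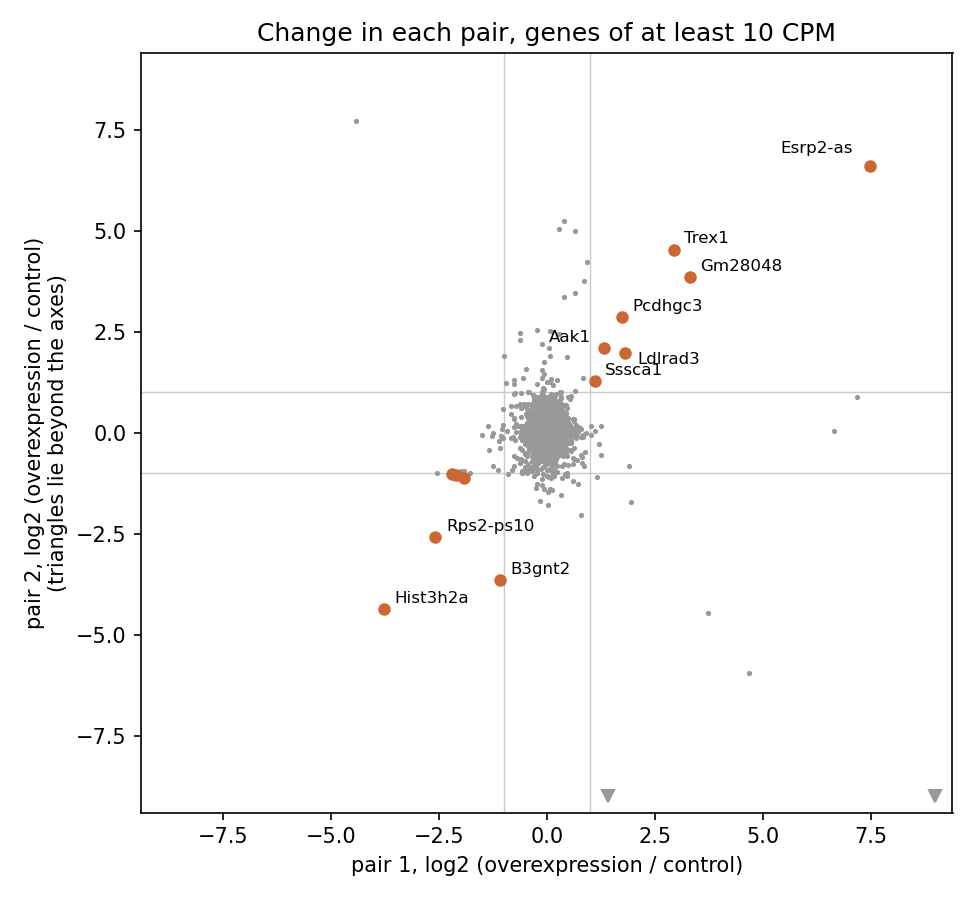
Log2 change of overexpression against control in pair 1 (x axis) and pair 2 (y axis) for 9466 genes of at least 10 CPM, with grey lines at 1 log2 unit. The 13 coloured points are the genes beyond the lines in the same direction in both pairs; Esrp2-as is farthest, and 3 unlabelled points on the left are Rnu3b small RNA copies.

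Ldlrad3 came next to Esrp2-as in order of p. This gene encodes a membrane protein of the LDL receptor family that some alphaviruses use to enter cells, and it lies on chromosome 2, 101950203 to 102186385, on the minus strand. Control cultures held 14.7 and 11.8 CPM of its RNA, and those with Esrp2-as held 51.3 and 45.9. The groups did not overlap, and the lanes agreed, with 15.2 and 14.3 CPM in control replicate 1 and 52.4 and 51.6 CPM in overexpressing replicate 1. The log2 change was 1.88 (SE 0.246, 95% interval 1.33 to 2.43), a 3.69-fold difference, but it did not pass the test over all genes (adjusted p = 0.220, edgeR). Its adjusted p was under the threshold in 4 of 15 other fits: 0.00295 with the 3T3-L1 libraries alone and the pairs, 2.77e-08 with DESeq2, 0.00730 with limma voom and 0.00275 with no filter on low counts. In the other 11 it was over it, among them 0.147 with the 3T3-L1 libraries unpaired, 0.481 with another scaling of the libraries, and 0.182 and 0.218 with only lane 1 or lane 2 of replicate 1. The main transcript, Ldlrad3-201, took 1267, 1403 and 1150 counts in the control columns and 5391, 4054 and 4428 with Esrp2-as, while Ldlrad3-202 took 273, 245 and 289 against 410, 2315 and 715. In M27H4 the log2 change of Ldlrad3 was -0.09.

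Of the other genes that were higher in both pairs, none passed the test, and they are given as values. Gpr176, which encodes an orphan G protein-coupled receptor, was 3.12 and 3.21 CPM in controls and 13.5 and 14.2 with Esrp2-as, a log2 difference of 2.12 (SE 0.691, adjusted p = 1, edgeR). Its lanes differed by at most 1.55-fold, so the groups stood apart in every column. Sssca1 was 21.6 and 33.0 CPM against 46.4 and 80.1, and the 2 groups were apart although each spread widely. Pcdhgc3, a member of the protocadherin gamma cluster whose genes share their last exons, was 19.2 and 16.1 CPM against 63.9 and 117.0.
Here the lanes of overexpressing replicate 1, which is a single library, gave 26.9 and 98.6 CPM. Trex1, the gene of a DNA exonuclease in the cytosol, was 2.64 and 1.77 CPM against 20.2 and 41.1, and its lanes in overexpressing replicate 1 gave 40.4 and 2.65. The lanes of that library thus differed 3.67-fold for Pcdhgc3, whose groups differed 4.92-fold, and 15.2-fold for Trex1, whose groups differed 13.3-fold.
Other genes of this kind were Trmt2b, Ccbe1, Nsun3, Bahcc1, Adck2 and Ywhaz. Their log2 differences ran from 0.46 for Ywhaz, a 14-3-3 adaptor protein gene at 236 and 266 CPM against 299 and 396, to 1.55 for Nsun3, a mitochondrial RNA methyltransferase gene at 4.55 and 1.83 CPM against 7.30 and 9.97. For 5 of these 6, all but Bahcc1, the lanes of one library differed more than the groups did: 3.78-fold against 2.93-fold for Nsun3, 3.04 against 1.85 for Ccbe1, 1.94 against 1.70 for Adck2, 1.87 against 1.60 for Trmt2b and 1.57 against 1.37 for Ywhaz. In Trmt2b, Ccbe1, Adck2 and Ywhaz the control and overexpressing columns overlapped. For Nsun3 the log2 difference was 0.68 in pair 1 and 2.44 in pair 2.

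The genes that were lower in both pairs were led by Mir17hg, the host transcript of the miR-17-92 microRNA cluster. It was 5.78 and 1.24 CPM in controls and 0.565 and 0.080 with Esrp2-as, a log2 difference of -3.60 (SE 0.643, adjusted p = 1, edgeR). The lanes of control replicate 1 gave 2.13 and 9.03 CPM, so its level moved between lanes, although all control columns were above all overexpressing ones. Hist3h2a, a histone H2A gene, was 56.3 and 80.2 CPM against 4.13 and 3.90, and the lanes of control replicate 1 gave 2.97 and 103.6. One control lane was thus below the overexpressing columns.
Rps2-ps10, a transcribed pseudogene of a ribosomal protein gene, was 263.6 and 234.3 CPM against 44.0 and 39.2, with lanes within 1.05-fold. Reads of such a pseudogene can be split with its parent gene, so its level is uncertain.
Bhlhb9 was 50.4 and 53.04 CPM against 29.6 and 29.9, a log2 difference of -0.80 (SE 0.277, adjusted p = 1, edgeR) with lanes within 1.08-fold. Tmem86b, a gene of plasmalogen breakdown, was 3.55 and 3.68 CPM against 1.21 and 0.959. Smim14, Dsn1, Hccs, Tmem129, Gpr19 and Gmeb1 had log2 differences from -0.50 to -0.67, and none passed the test. Hccs, which encodes the enzyme that attaches heme to cytochrome c, was 58.4 and 48.9 CPM against 50.03 and 24.4, so its controls overlapped with 1 of the overexpressing cultures. For Hist3h2a, Smim14, Dsn1 and Tmem129, lanes of one library differed more than the groups, and the columns of the groups overlapped.

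**Figure D3:**
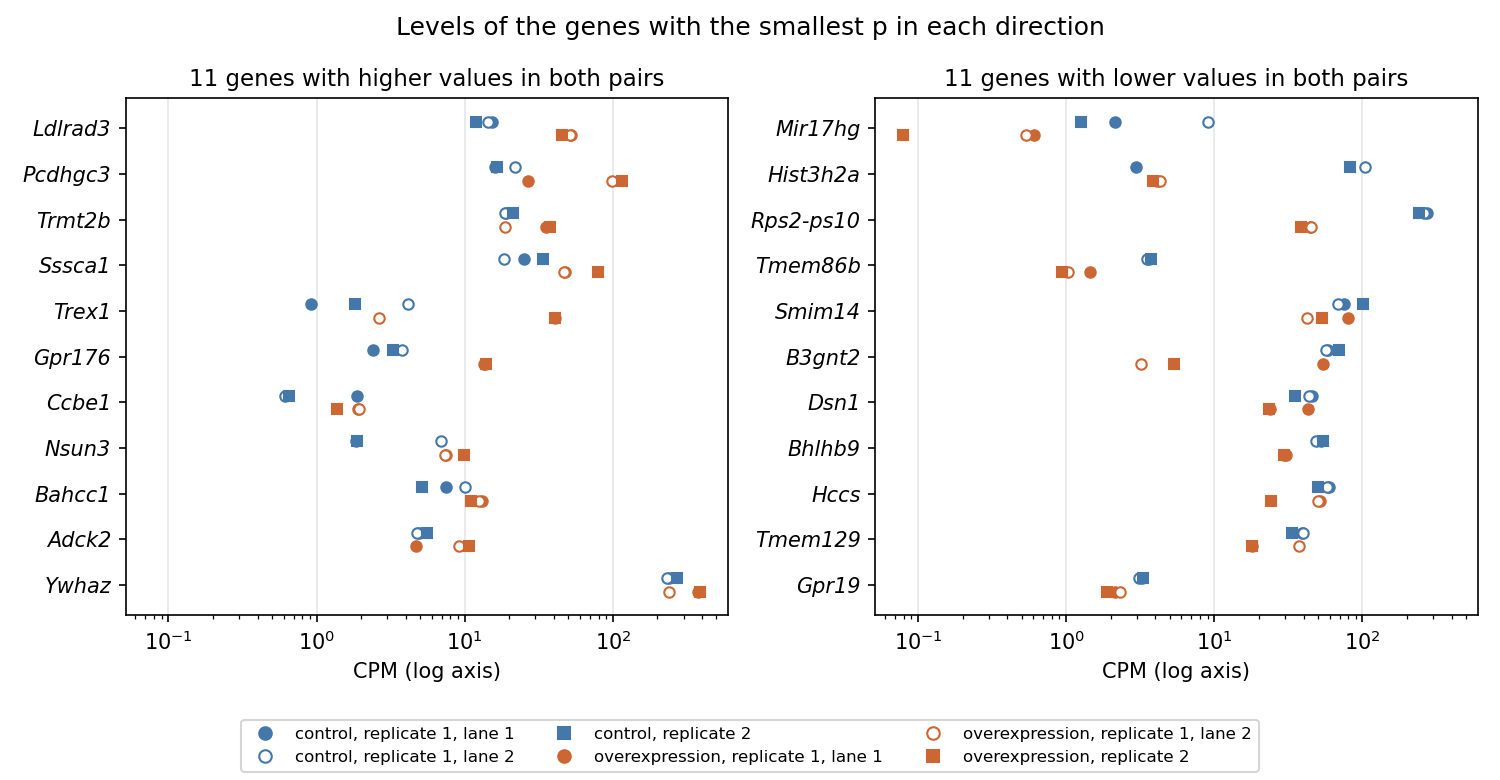
CPM on a log axis of the 11 genes with the smallest p among those higher (left) and lower (right) in both pairs, one symbol per deposited column, with filled and open circles for the lanes of replicate 1 and squares for replicate 2. Ldlrad3, Gpr176, Rps2-ps10 and Bhlhb9 separate the groups in every column, whereas the 2 lanes of replicate 1 lie far apart for Trex1, Hist3h2a and B3gnt2.

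B3gnt2, a glycosyltransferase gene on chromosome 11, overlaps another annotated gene whose values went the opposite way. B3gnt2 was 57.6 and 68.2 CPM in controls and 27.02 and 5.41 with Esrp2-as. Gm28048, which overlaps B3gnt2 and Commd1 on the same strand, was 3.74 and 4.86 CPM in controls and 37.2 and 70.3 with Esrp2-as. Their sum was 61.3 and 73.1 CPM against 64.2 and 75.7, a log2 ratio of 0.06. The lanes of overexpressing replicate 1 held 54.4 and 3.21 CPM of B3gnt2 and 8.16 and 64.0 CPM of Gm28048. In these 2 readings of one library, the lane with more of one gene thus had less of the other.
Over all genes of at least 10 CPM, 144 (1.52%) differed more than 2-fold between the lanes of replicate 1 in either group, against 5 of the 15 genes of that level among the 24 selected by p in both directions. From 1 CPM up, the level from which the 24 were selected, these were 265 genes (2.04%) and 8 of the 24. Whether the assignment of reads to overlapping transcripts sets these differences was not tested.

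A fit on the 3T3-L1 libraries alone, with the pairs, had 1 residual degree of freedom, so its estimate of spread rests on little. It had 13 genes past the threshold, 0.067% of 19398 tested. Besides Esrp2-as, Ldlrad3, Gpr176, Sssca1, Rps2-ps10, Hist3h2a, Mir17hg and Gm28048 these were Purb, Yy2, Gp1bb, Pcdhb19 and AC161456.1, and 7 of the 13 differed more than 2-fold between lanes. Purb, the gene of a protein that binds single-stranded purine-rich DNA, had no counts in the 3 control columns and 4.65, 10.9 and 11.3 CPM in the overexpressing ones. Pcdhb19 was the reverse, at 1.60 to 2.04 CPM in the control columns and without counts in the overexpressing ones. In the main fit neither passed the test, with log2 differences of 13.4 (SE 6.97) for Purb and -11.0 (SE 2.15) for Pcdhb19. Each gene has a group without counts, so the size of these differences and their SE depend on the small count that the fit adds. Yy2 held 1.63 and 0.0080 CPM in the lanes of overexpressing replicate 1. DESeq2 on all libraries had 18 genes past the threshold (0.0848%), 10 higher and 8 lower, of which 7 were among these 13 and 10 differed more than 2-fold between lanes.

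Gene lists were described by counts and medians. In all 27 lists, 0 members rose or fell by the test, which over all genes called 0.00471%. Over all 21237 genes, 50.7% had a positive log2 change, 25.7% were higher in both pairs and 24.5% lower in both pairs. Members of one list share regulation, libraries and pairs, so their counts are not independent observations.

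No gene of the fat cell program passed the test. Of 22 genes of adipocyte differentiation, 16 passed the filter on low counts, 10 of them with positive values, and the median log2 change was 0.08. Pparg and Cebpa, the transcription factors that drive fat cell formation, were picked for that role after their values were seen, not by p. Pparg was 21.3 and 21.03 CPM against 20.2 and 21.2, a log2 change of -0.03 (SE 0.250), and Cebpa was 2.55 and 3.51 CPM against 2.33 and 4.03. The fatty acid carrier gene Fabp4 was 1.82 and 2.74 CPM against 1.58 and 1.71, and the regulator Klf15 was 0.141 and 0.129 against 0.251 and 0.320. In 20 tested genes of preadipocyte and fibroblast identity the median was 0.12. Among them Gata3, a gene kept on in preadipocytes, was 3.59 and 3.00 CPM against 3.91 and 3.78, and the Wnt inhibitor gene Sfrp1 stayed below 0.11 CPM in all replicates. In 33 genes of cholesterol and fatty acid synthesis the median was 0.06, with Scd2 at 660.8 and 612.2 CPM against 749.5 and 804.3 and the regulator Srebf2 at 116.6 and 139.8 against 138.8 and 163.6.

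Matrix and signalling lists had slightly positive medians. Of 33 collagen and extracellular matrix genes, 27 had positive values, 15 were higher and 2 lower in both pairs, and the median was 0.14, from 0.079 in pair 1 and 0.24 in pair 2. Col16a1 was 154.2 and 149.2 CPM against 176.8 and 185.5, and Col5a1 was 455.6 and 305.4 against 497.3 and 434.6. Sparc, a matrix protein gene that stood out in the other direction, was 1069 and 1196 CPM in controls and 1074 and 626.6 with Esrp2-as, so its lower mean came from replicate 2 alone. Among 28 immediate early genes 23 had positive values, 14 were higher and 0 lower in both pairs, and the median was 0.11, from 0.031 in pair 1 and 0.20 in pair 2. Nr4a2 was 5.29 and 3.93 CPM against 5.34 and 6.08, Fosl1 was 10.1 and 3.85 against 10.7 and 6.34, and Egr3 was 0.310 and 0.218 against 0.348 and 0.764, with most of each difference in pair 2.
Of 27 Wnt genes 22 had positive values with a median of 0.13 (0.046 in pair 1 and 0.15 in pair 2), and of 26 genes of FGF, PDGF and IGF signalling 20 had positive values with a median of 0.14 (0.069 and 0.21). The positive medians of these 4 lists were thus larger in pair 2. Wnt4 was 4.48 and 8.24 CPM against 6.51 and 9.78, the Wnt inhibitor gene Nkd2 was 2.90 and 1.65 against 4.01 and 2.03, and Fgf2 was 1.69 and 0.460 against 1.82 and 2.14.

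Replication-dependent histones had the highest median of the 27 lists, 0.16, with positive values in 28 of 31 and higher values in both pairs in 25, and it was 0.13 in pair 1 and 0.18 in pair 2. Hist1h1c, a linker histone gene, was 242.2 and 206.5 CPM against 286.8 and 226.3, a log2 change of 0.19 (SE 0.186). Most of these mRNAs lack a poly(A) tail, so they are seen here because the libraries were made from ribosome-depleted RNA. Hist2h3c1 was 1.18 and 0.937 CPM in controls and 174.0 and 1.73 with Esrp2-as, and Hist2h2bb was 333.0 and 392.8 against 371.3 and 187.5. Members of this family have near-identical copies, so counts may be split between them and these values are uncertain. Small structured RNAs also took a larger share of the counts in overexpressing replicate 1 (5.89%) than in its control (5.03%), and in pair 2 the shares were 7.15% and 7.08%. Their part in the histone values was not tested.

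Lower values prevailed in 2 lists of stress and defence genes. Of 40 interferon response genes, 10 had positive values, 2 were higher and 18 lower in both pairs, and the median was -0.06, from -0.18 in pair 1 and -0.011 in pair 2. Of 23 genes of heat shock and oxidative stress, 8 had positive values, 5 were higher and 12 lower in both pairs, and the median was -0.06, from -0.097 in pair 1 and -0.021 in pair 2. In both lists most of the shift thus lay in pair 1. Ifit3 was 478.2 and 560.2 CPM in controls and 367.0 and 501.8 with Esrp2-as, Iigp1 was 178.3 and 186.6 against 132.4 and 168.6, and Ifi47 was 58.2 and 60.1 against 49.7 and 51.5. In M27H4 these 3 genes had log2 changes of 0.59, 0.79 and 0.31 under the same overexpression. The medians of the cell cycle lists were -0.04 for 40 genes of G1/S and DNA replication and -0.03 for 36 of G2/M and mitosis, and that of 30 p53 targets was -0.01. Of 30 genes of NF-kB, cytokines and chemokines, 14 had positive values, 9 were higher and 6 lower in both pairs, and the median was -0.01, with log2 changes from -0.56 to 0.44. Il6 was 4.18 and 4.72 CPM against 3.09 and 2.92, lower in both pairs without overlap, and Il11 was 3.03 and 2.00 against 3.35 and 2.86.
Of the remaining lists, named members were Hk1, the hexokinase gene, at 88.7 and 99.3 CPM against 111.8 and 122.9, the actin gene Actg1 at 743.7 and 616.6 against 767.0 and 1013, Smtn at 14.1 and 11.7 against 16.6 and 15.7, Bmp4 at 0.305 and 0.307 against 0.431 and 0.479, and Matn3 at 0.155 and 0.129 against 0.063 and 0.053. None of these passed the test.

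**Figure D4:**
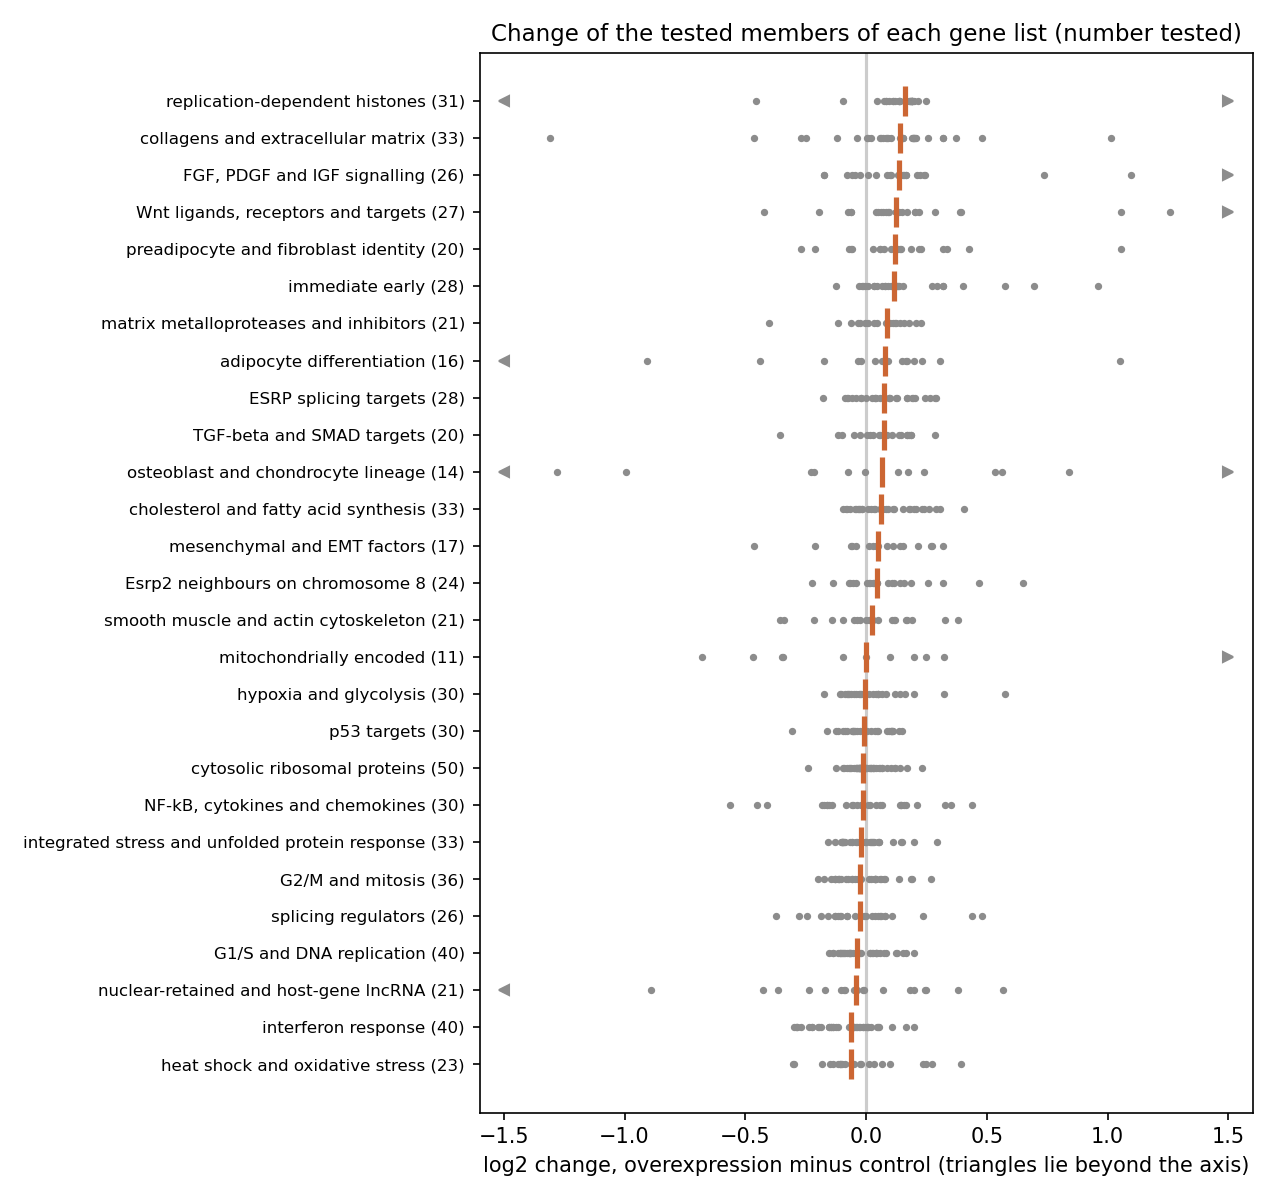
Log2 change of overexpression against control for the tested members of 27 gene lists (grey points) with each list's median (orange bar); triangles mark members beyond the axis. Medians run from -0.06 to 0.16, and none of the members passed the test.

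Splicing factors and known ESRP targets were examined because Esrp2 controls splicing. Of 26 splicing regulators, 11 had positive values and the median was -0.03. Esrp1 was 0.378 and 0.565 CPM in controls and 0.569 and 0.728 with Esrp2-as, a log2 change of 0.48 (SE 0.197, adjusted p = 1, edgeR), and the groups did not overlap, with 0.565 as the higher control and 0.569 as the lower overexpressing value. By column they did overlap: the lanes gave 0.244 and 0.497 CPM in control replicate 1 and 0.333 and 0.796 in overexpressing replicate 1, a 2.35-fold difference within one library against 1.40-fold between the groups. Rbm47, another epithelial splicing factor gene, was 1.04 and 1.27 CPM against 0.925 and 0.843. Of the 23 epithelial markers, which include Esrp1, 17 had positive values, 11 were higher and 2 lower in both pairs, and 3 had an unadjusted p under 0.05. Over all genes tested, 50.7% had positive values, 25.7% were higher and 24.5% lower in both pairs, and 1.11% had such a p. Only 10 of the 23 markers reached 1 CPM in all 3T3-L1 replicates, so many of these values were low. The median log2 change of the 23 was 0.10, from 0.26 in pair 1 and 0.010 in pair 2. All 3 lanes also held M6 and M27H4 libraries. The part of those libraries in the values of Esrp1, Esrp2 and the other epithelial markers was not tested. Of 28 ESRP target genes the median change of the gene level was 0.08, with Fgfr1 at 69.9 and 65.2 CPM against 75.0 and 85.2, Arhgef11 at 67.0 and 54.1 against 68.7 and 76.4, and Plekha1 at 57.2 and 46.3 against 55.9 and 71.0.
In the test of transcript shares, which asks whether the isoforms of a gene take different parts of its counts, 27 ESRP targets could be tested and 0 passed. The smallest unadjusted p among them belonged to Fgfr2 (adjusted p = 1), the only one under 0.05. Over all genes in this test 3.97% were under it, so 1 of 27 is close to that share.

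Over 66939 transcripts, 0 (0%) passed the test, and 1221 (1.82%) had an unadjusted p under 0.05. Without the pairs in the fit, 3 transcripts passed, Klrg2-201, Mboat2-201 and Ccbe1-202. Mboat2-201 took no counts in the control columns and 0, 32 and 12 in the overexpressing ones. Ccbe1-202 took 0, 59 and 70 counts in the control columns and none in the overexpressing ones. For both transcripts, lane 1 of a replicate 1 library thus had the value of the opposite group. Of 9968 genes with at least 2 tested transcripts, Klrg2 alone passed the share test (0.01%), and 396 (3.97%) had an unadjusted p under 0.05.

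Klrg2 encodes a lectin-like receptor of the cell surface and lies on the minus strand of chromosome 6. Klrg2-201 has 5 exons and codes for the protein. Klrg2-203 has 6, with an additional exon 2 of 170 bases at 38631688 to 38631857 and a longer last exon, and is annotated as a target of nonsense-mediated decay. The start of that exon, chr6:38631829-38631857 on the minus strand, is shown because it carries the early stop codon, in capitals.
Klrg2-203: aggctggaagacgacatctgatccttTGA
In the control columns Klrg2-203 took 122, 108 and 137 counts and Klrg2-201 none. In the overexpressing columns Klrg2-203 took 0, 3 and 0 counts and Klrg2-201 took 143, 126 and 127. The assignment was thus opposite between the groups, complete in all columns but the lane of overexpressing replicate 1 with 3 counts of Klrg2-203, while the gene's total was similar. Klrg2-203 made up 100% of the gene's counts in both control replicates and 1.10% and 0% in the overexpressing ones (adjusted p = 0.00209, limma on transformed shares). A count of 0 allows a share of up to 1.30% and 2.19% for Klrg2-201 in the 2 controls and up to 2.36% for Klrg2-203 in overexpressing replicate 2, for counting error only. The counts per column are low, and they were assigned by the authors' transcript estimation, not read from junctions. In M27H4 the share of Klrg2-203 was at most 1.04% in both groups, so the line without overexpression already had the form seen with Esrp2-as in 3T3-L1. The call of Klrg2 was kept in each of the other share fits.

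**Figure D5:**
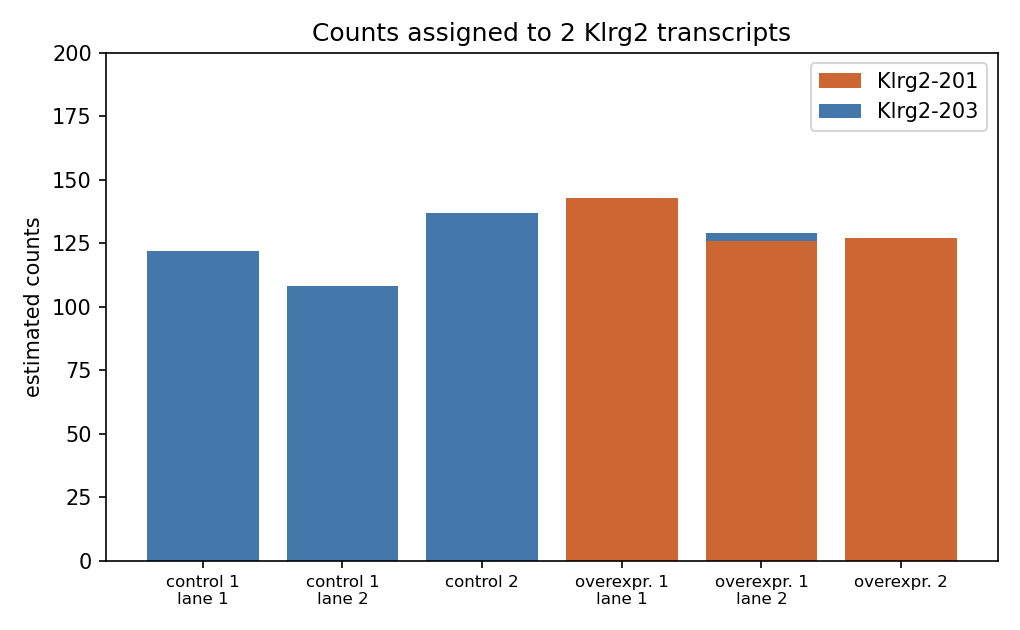
Estimated counts of 2 Klrg2 transcripts in each deposited 3T3-L1 column (bars from 0, stacked). The 3 control bars are all Klrg2-203 and the 3 overexpressing bars nearly all Klrg2-201.

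The other genes with the smallest p in the share test did not pass it. Lamb3-209, a transcript of a laminin chain gene, made up 0% in both controls and 72.3% and 47.2% with Esrp2-as (adjusted p = 0.0501, limma), from 267 to 506 counts of the gene per replicate. Oxr1-203 made up 0.228% and 0.386% against 3.45% and 4.72% of a gene with 24913 counts or more. Lsr-204 made up 0% against 20.0% and 19.6%, from 56 to 145 counts.
Among transcripts, Fzd6-201 took 70 counts in 1 control lane and none elsewhere, so it rests on a single column. Kitl-201 took 0 and 58 counts in the lanes of control replicate 1, 412 in control replicate 2 and none in the overexpressing columns.

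The response was set beside that of M27H4 by the difference of the 2 overexpression effects. Of 21237 genes, 0 (0%) differed at an adjusted p under 0.05, and 340 (1.60%) had an unadjusted p under 0.05 (edgeR). With DESeq2, 8 genes (0.0377%) differed. The smallest p belonged to Ldlrad3, with a log2 change of 1.88 in 3T3-L1 and -0.09 in M27H4, a difference of 1.98 (SE 0.311, adjusted p = 1, edgeR). Pcdhgc3 had 2.30 against -0.49. The other 3 of the 5 smallest p belonged to Mir3069, Snora26 and a gene without a symbol. Esrp2-as rose in both lines, by 7.08 in 3T3-L1 and 5.41 in M27H4, and the difference of 1.68 (SE 0.608, adjusted p = 1, edgeR) did not pass the test.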

How the data were processed

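Per the submitters' processing notes, the authors trimmed reads with cutadapt, aligned them to mm10 (GRCm38) with HISAT2, quantified them with StringTie and used edgeR; versions and strand settings are not given in the sources used here. The deposited gene and transcript tables hold expected counts (StringTie estimates written as whole numbers). In 2 further tables of normalised values, not used here, 2 columns matched no sample.

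Technical replicates were summed, giving 14 replicates in 6 groups. Genes passing filterByExpr (21237 of 48440) were tested with edgeR 4.0.16 (TMM scaling, robust quasi-likelihood, R 4.3.3) on all groups, with 5 residual degrees of freedom, the pair as a block within 3T3-L1 and within M27H4, and Benjamini-Hochberg adjustment at 0.05. The pairing comes from the labels' replicate numbers and the shared LR codes. Over genes of at least 10 CPM the replicate difference of controls and of overexpressing cultures correlated (r = 0.389, Spearman 0.634, across genes, which are not independent). Over the same genes the change in pair 1 and that in pair 2 had r = -0.129 and Spearman 0.103.

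Transcripts were tested in the same way. Shares of gene counts (genes with 2 or more tested transcripts and at least 10 counts in each 3T3-L1 replicate) were arcsine transformed and tested with limma 3.58.1, taking Simes p-values per gene. The spread of this test was tied to the gene total after the first fit, seen on the data, made calls on simulated counts without change. DESeq2 1.42.0, limma voom, other scaling, filters, lanes and left-out replicates were alternatives. Scripts were tested on simulated data.

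Gene annotation was GENCODE M21 on GRCm38, which held 48058 of the identifiers. Sequences shown are from its transcript file. Genes named were Esrp2-as and Esrp2, up to 12 in each direction (called ones, then smallest p with at least 1 CPM and both pairs alike), up to 3 per list, the 3 to 5 smallest p for transcripts, shares and the M27H4 difference, and others chosen after their values were seen (Pparg, Cebpa, Gm28048, Commd1, Purb, Yy2, Gp1bb, Pcdhb19, AC161456.1 and the marker genes). Members and lists were chosen with earlier results of these data known. No source says how separate the cultures of a group were, so p-values measure the spread between these samples. In the main edgeR fit this spread was estimated from the 14 replicates of 3T3-L1, M27H4 and M6 together. A p-value for 3T3-L1 thus also reflects spread within the other lines. Among genes past the threshold with the 3T3-L1 libraries alone and the pairs, the SE of Rps2-ps10 was 0.0908 there and 0.558 in the main fit. That of Ldlrad3 was 0.0961 and 0.246. In bulk RNA, fewer cells of a type and less RNA per cell cannot be told apart. Some genes are not reported here.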

Additional observations from a re-analysis of the deposited data

How the results depend on the processing

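With 2 replicates a group and 5 residual degrees of freedom, the 95% interval of a log2 change had a median half-width of 0.52 over genes of at least 10 CPM and 0.78 over all genes tested. The rise of Esrp2-as in 3T3-L1 kept its direction in all 15 alternative fits and fell short of the threshold in 4 of them, all with a replicate left out: without replicate 1 or 2 in the paired fit (log2 6.64 and 7.50) and without control replicate 1 or 2 in the unpaired fit (6.83 and 7.32). Over all fits with a replicate left out, its log2 rise ran from 6.64 to 7.50. The count of genes past the threshold was 1 with the pairs and 1 with no replicate block. It was 13 with only the 3T3-L1 libraries and the pairs, 4 with those libraries unpaired, 18 with DESeq2 (10 higher), 5 with limma voom, 4 with no filter on low counts, 2 with only lane 1, and 0 to 5 with a replicate left out. For the difference from M27H4 the count was 0, against 1 with no replicate block, 8 with DESeq2, and 0 to 1 with a replicate left out. For transcripts it was 0, against 3 with no replicate block. For transcript shares it was 1, against 18 with no replicate block, 24 with only lane 1, 3 with only lane 2 and 33 with the spread not tied to the gene total, a fit added after the data were seen. The causes of these differences were not tested.

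Of 72 single genes followed through these fits, 13 passed the threshold in at least 1, and 10 changed sign in at least 1. None of these 10 was among the 24 selected by p. Those 24 had been selected for the same direction in both pairs, so a change of sign was unlikely from the start. Esrp2 was -0.15 with only lane 1, and Hist2h2bb was 0.063 with only lane 2. With a replicate left out, the log2 change ran from -0.086 to 0.011 for Pparg, -0.37 to 0.41 for Cebpa (paired: -0.14 to 0.20), -0.043 to 0.62 for Plekha1, -0.056 to 0.68 for Nfatc3, -0.013 to 0.52 for Tango6, -0.17 to 0.88 for Nkd2, -0.019 to 0.84 for Wnt4, -0.25 to 1.15 for Fosl1 (-0.14 in the other reversed fit) and -1.07 to 0.15 for Hist2h2bb (0.033 in the unpaired fit). Medians of the 27 gene lists were followed through 3 fits each, unpaired and without either replicate. Of these 81 values, 18 moved beyond the spread between the pairs, and 11 lists changed sign in at least 1 fit. The interferon median was -0.19 without replicate 2 and -0.011 without replicate 1, and that of immediate early genes 0.023 and 0.20.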
